A study of Mus musculus with 8 samples.

Results

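Transcripts of the Wnt pathway's ligands, Frizzled receptors and modulators were described in mouse choroid plexus, the epithelium and stroma that makes cerebrospinal fluid. This gene family was chosen with earlier results of these data known. Within it members were chosen by gene symbol, without using any measured value: 48 of the 23284 genes in the count table matched. They comprised 19 Wnt ligands, 10 Frizzled receptors, the 2 co-receptors Lrp5 and Lrp6, 4 secreted Frizzled-related proteins, 4 Dickkopf proteins, the secreted inhibitors Wif1 and Notum, the feedback inhibitors Axin2 and Nkd1, beta-catenin (Ctnnb1) and 4 transcription factors of the TCF/LEF family. R-spondins were not included. RNA sequencing had been done on CD1 embryos of stage E18.5, late in gestation, and no treatment or engineered mutation was labelled. The groups were hindbrain sorted cells, telencephalic sorted cells, hindbrain whole choroid plexus and telencephalic whole choroid plexus, with n = 2 libraries each. Sorted cells were epithelial cells purified by flow cytometry for a red fluorescent reporter named Ttr::RFP, after transthyretin, the main secreted protein of this epithelium. The sample titles name this reporter for the sorted cells only. Both regions came from the same brains, per the series' design text. Whether embryos were pooled is not stated.

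Wnt proteins are lipid-modified secreted signals that bind Frizzled receptors. With the co-receptors Lrp5 and Lrp6 they stabilise beta-catenin, which acts with TCF/LEF factors in the nucleus. With other co-receptors, such as Ror2, they act on cell shape and polarity without beta-catenin. The choroid plexuses arise at the dorsal midline of the brain, where Wnt signals from the cortical hem and the roof plate are among the known patterning cues.

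Total counts ranged from 8849053 to 31613434 per library. Levels are given as CPM, read counts relative to the library size after scaling by TMM, edgeR's trimmed-mean normalisation, and levels of different genes are compared only as CPM per kilobase of exon. Differences are log2 values ± SE, hindbrain minus telencephalic or sorted minus whole. Adjusted p values come from the quasi-likelihood test of edgeR, adjusted over 15698 genes by the Benjamini-Hochberg method, and a gene is called below 0.05. The sum over 10 markers of choroid epithelium was 169000 and 220000 CPM in hindbrain sorted cells, 290000 and 266000 CPM in telencephalic sorted cells, 147000 and 149000 CPM in hindbrain whole tissue, and 193000 and 178000 CPM in telencephalic whole tissue. Single markers did not all follow these sums. In hindbrain sorted cells 3 were called higher and 2 lower, beside 9.06% and 6.12% of all genes. In hindbrain whole tissue 3 were called higher and 1 lower, beside 3.34% and 2.45%. Against whole tissue, 4 were called higher in hindbrain sorted cells and 5 in telencephalic sorted cells, beside 10.2% and 9.88% of all genes, and 0 lower. The sum over 10 endothelial markers ranged from 117 to 162 CPM in the 4 sorted libraries, against 610 to 691 CPM in the 4 whole libraries. In hindbrain the mural, neuronal, erythroid, and neural progenitor and glial sums were also lower in both sorted libraries. The hindbrain mesenchymal sum was 1810 and 1400 CPM in sorted cells, against 1550 and 1730 CPM in whole tissue. The hindbrain macrophage sum was 198 and 164 CPM in sorted cells, against 183 and 184 CPM in whole tissue. Exons of Fzd5, Fzd6, Sfrp2, Axin2, Lef1, Tcf7l1, Wnt11, Wnt7b and Notum overlap those of a gene on the other strand in the GENCODE M21 annotation, and as the counting is not stated to use strand, reads of such pairs cannot be told apart.

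Of the 48 members 38 passed the filter on low counts and were tested. In sorted cells 12 of the 38 were called between regions, 10 higher and 2 lower in hindbrain, which is 31.6%, beside 15.2% of all genes tested (9.06% higher and 6.12% lower). In whole tissue 10 of the 38 were called, 9 higher and 1 lower in hindbrain, which is 26.3%, beside 5.79% of all genes (3.34% higher and 2.45% lower). As the family was chosen with earlier results of these data known, both shares are a description and not a test of it. The median difference over the members was 0.01 in sorted cells and 0.24 in whole tissue, beside 0.00 and 0.01 over all genes tested. Fewer members were called in sorted cells without either telencephalic sorted library, and in whole tissue without any 1 whole library. The share of all genes called in these fits is not given here, so the drop is not read as a result about the members. To pass the filter a gene needed at least 0.489 CPM, before TMM scaling, in 2 libraries. Wnt1, Wnt2, Wnt3 and Fzd9 would not have passed without the higher group of at least 1 comparison, and Wnt6 reached that level in hindbrain libraries only. Wnt6 is among the members called higher in hindbrain in both preparations, and nothing is read from its calls. In these bulk libraries fewer cells of a type and less RNA per cell cannot be told apart. Groups of 2 libraries often do not overlap. In sorted cells 4094 of the 15698 genes tested lay higher and 4049 lower in hindbrain, and 7555 overlapped. In whole tissue 4212 lay higher, 3887 lay lower and 7599 overlapped. Between preparations 6326 overlapped in hindbrain and 5289 in the telencephalon. Of the 48 members 21 overlapped in each comparison. This count includes members that did not pass the filter, many of them at 0 in several libraries. It therefore cannot be set beside the counts of tested genes. Non-overlap is given below as a description of the values, not as a test.

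**Figure D1:**
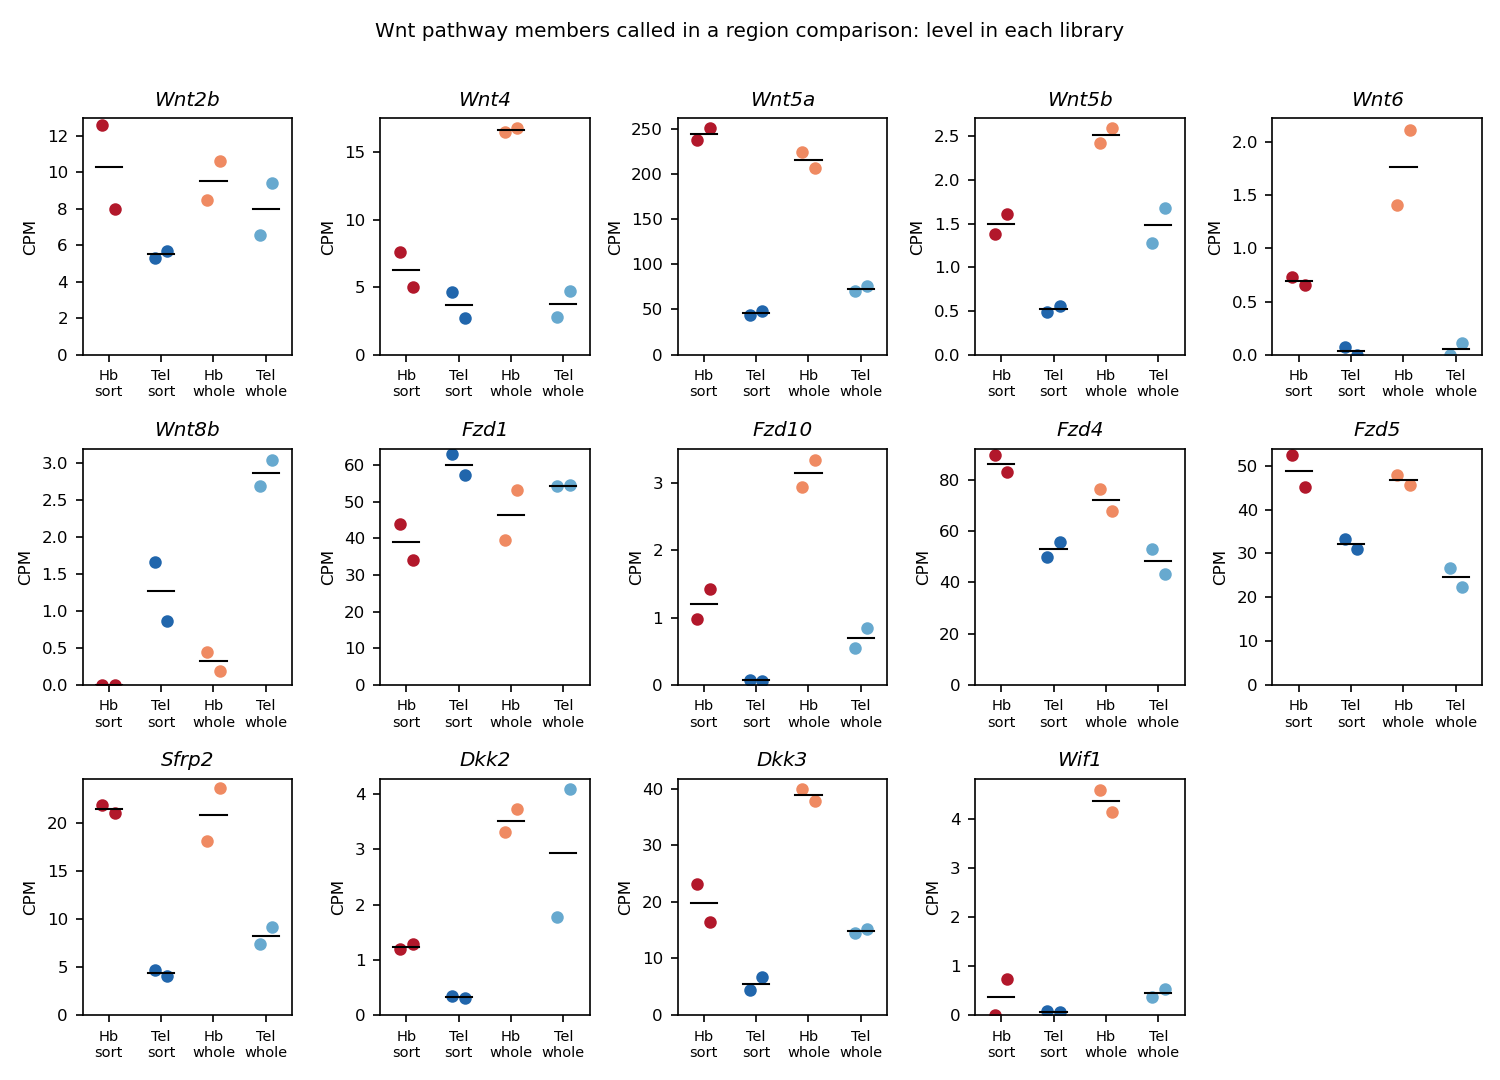
Level in CPM (vertical axis, starting at 0, scaled separately in each panel) of the 14 members called in at least 1 regional comparison; each point is 1 library, each bar a group mean, and the groups are hindbrain (Hb) and telencephalic (Tel) sorted cells and whole tissue. Wnt8b and Fzd1 lie lower in hindbrain than in telencephalic sorted cells, the other way from Wnt5a, which had 238 and 251 CPM in hindbrain sorted cells against 44.1 and 48.4 CPM in telencephalic sorted cells.

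Among the ligands, Wnt5a, best known for signalling without beta-catenin, was the most abundant in hindbrain and was higher there in both preparations. It had 238 and 251 CPM in hindbrain sorted cells, against 44.1 and 48.4 CPM in telencephalic sorted cells. In whole tissue the values were 224 and 206 CPM in hindbrain, against 70.5 and 75.7 CPM in the telencephalon. All 4 hindbrain libraries lay above all 4 telencephalic libraries. The regional difference was 2.40 ± 0.12 in sorted cells (adjusted p = 1.53e-07), which is 5.29-fold, and 1.56 ± 0.11 in whole tissue (adjusted p = 7.11e-06), which is 2.95-fold. It was thus larger in sorted cells by 0.84 ± 0.16 (95% interval 0.50 to 1.19, adjusted p = 0.0196). This made Wnt5a the 1 member of 38 called in the test of that difference, which is 2.63%, beside 1.34% of all genes (1.1% higher and 0.242% lower). The call of the difference did not hold when any of 5 libraries was left out, which were telencephalic sorted replicate 1 (0.78, adjusted p = 0.133) or 2 (0.91, 0.0536), hindbrain whole replicate 2 (0.79, 0.0866), and telencephalic whole replicate 1 (0.89, 0.0828) or 2 (0.79, 0.147).

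Expressed per kilobase of exon, Wnt5a supplied 72.6% ± 1.7 (SD) of the summed ligand transcripts in hindbrain sorted cells and 34.5% ± 0.14 in telencephalic sorted cells. In whole tissue its share was 62.7% ± 4.1 in hindbrain and 41.2% ± 0.99 in the telencephalon. The summed level of the 19 ligands was 47.9 ± 0.58 CPM per kilobase in hindbrain sorted cells and 19.1 ± 1.3 in telencephalic sorted cells, and 48.9 ± 0.40 in hindbrain whole tissue and 25.2 ± 1.9 in telencephalic whole tissue. Wnt9a, known from joint development, was the next ligand by level in hindbrain, at 6.31 CPM per kilobase in sorted cells and 7.85 in whole tissue. In telencephalic sorted cells Wnt9a, at 8.06 CPM per kilobase, and Wnt5a, at 6.58, were the leading pair. Wnt9a had 20.1 and 21.9 CPM in hindbrain sorted cells, 24.4 and 29.2 CPM in telencephalic sorted cells, 22.2 and 30.0 CPM in hindbrain whole tissue, and 29.5 and 28.5 CPM in telencephalic whole tissue. It was not called between regions (-0.35 ± 0.17 in sorted cells, adjusted p = 0.201, and -0.15 ± 0.17 in whole tissue, adjusted p = 0.753).

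**Figure D2:**
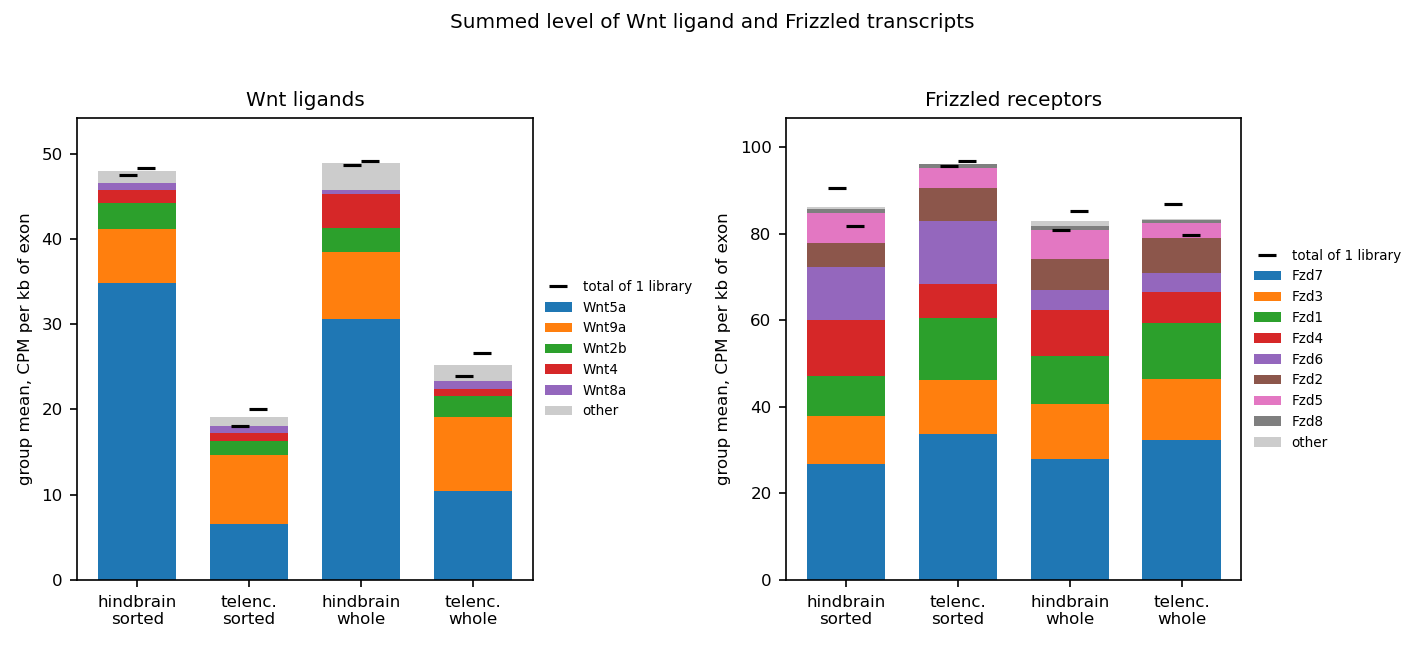
Summed level of the Wnt ligands and of the Frizzled receptors in CPM per kilobase of exon, stacked by gene as group means for the 4 groups; each dash is the total of 1 library. The ligand sum is 47.5 to 49.1 in the 4 hindbrain libraries and 18.1 to 26.6 in the 4 telencephalic libraries, whereas the Frizzled sum is 79.8 to 96.8 over all 8.

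Wnt4, a ligand required in kidney and gonad development, was higher in hindbrain in whole tissue. Its levels in sorted cells were 7.57 and 5.03 CPM for hindbrain and 4.65 and 2.73 CPM for the telencephalon. In whole tissue it had 16.5 and 16.8 CPM in hindbrain, against 2.81 and 4.72 CPM in the telencephalon. The groups did not overlap in either preparation, and the pair of hindbrain whole libraries was the highest. The whole tissue difference was 2.18 ± 0.32 (adjusted p = 0.00128). In sorted cells it was 0.74 ± 0.31 and not called (adjusted p = 0.133), and with brain as a block it was 0.78 and called (adjusted p = 0.0384). The sorted difference minus the whole difference was -1.44 ± 0.45 and not called (adjusted p = 0.22).

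Wnt6, a ligand of surface epithelia, was nearly restricted to hindbrain libraries. It had 20 and 18 counts in hindbrain sorted cells, against 2 and 0 in telencephalic sorted cells. Whole tissue had 35 and 45 counts in hindbrain, against 0 and 1 in the telencephalon. The ratio, with a 95% interval for counting error only, was 14.8 (3.82 to 126) in sorted cells and 45.0 (7.86 to 1800) in whole tissue. Both differences were called (adjusted p = 0.0194 and 0.00906). Wnt6 passed the filter through hindbrain libraries only, so the counts are a description and nothing is read from these calls. The sorted difference was not called with telencephalic sorted replicate 1 or 2 left out, or with the sorted libraries alone (adjusted p = 0.0547). That in whole tissue was not called without hindbrain whole replicate 2 or telencephalic whole replicate 1.

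Wnt8b, which marks the cortical hem of the embryonic telencephalon, ran the other way and was the only ligand called lower in hindbrain in either preparation. It had 0 counts in both hindbrain sorted libraries, where 3 counts over the group would be 0.0548 CPM, against 44 and 14 counts in telencephalic sorted cells. In whole tissue it had 0.444 and 0.189 CPM in hindbrain, against 2.69 and 3.04 CPM in the telencephalon. The groups did not overlap in either preparation. Wnt8b was at least 24.9-fold lower in hindbrain sorted cells, taking 3 counts over the group as the floor (adjusted p = 0.000886). The difference in whole tissue was -3.13 ± 0.64 (adjusted p = 0.0129). The whole tissue call was lost without any 1 of the 4 whole libraries (adjusted p = 0.0549 to 0.167).

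Wnt2b and Wnt5b were also called in sorted cells, and both calls were lost without certain single libraries. Wnt2b, also known from the cortical hem, had 12.6 and 8.0 CPM in hindbrain sorted cells and 5.29 and 5.71 CPM in telencephalic sorted cells. The difference was 0.91 ± 0.27 (adjusted p = 0.0375). It was not called without hindbrain sorted replicate 1 (0.54), telencephalic sorted replicate 1 (0.85) or 2 (0.96), or either telencephalic whole library (0.91 each). With the sorted libraries alone it was not called either (0.91, adjusted p = 0.0777). In whole tissue Wnt2b had 8.47 and 10.6 CPM in hindbrain and 6.54 and 9.43 CPM in the telencephalon, ranges that overlapped (0.27 ± 0.27, adjusted p = 0.724). Wnt5b, the close relative of Wnt5a, had 1.38 and 1.61 CPM in hindbrain sorted cells and 0.492 and 0.558 CPM in telencephalic sorted cells (1.51 ± 0.46, adjusted p = 0.042). In whole tissue Wnt5b had 2.42 and 2.60 CPM in hindbrain and 1.28 and 1.68 CPM in the telencephalon, groups that did not overlap but were not called (0.78 ± 0.43, adjusted p = 0.42). The sorted call of Wnt5b was kept without hindbrain sorted replicate 1 but lost without any other 1 of the libraries (1.40 to 1.59). It was also lost with the sorted libraries alone (1.51, adjusted p = 0.155), and DESeq2 did not make it (adjusted p = 0.0728).

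Wnt1, a signal of the midbrain-hindbrain boundary and dorsal midline, had 26 and 13 counts in hindbrain whole tissue and 0 counts in the other 6 libraries. Wnt2, which acts with Wnt2b in lung development, had 11 and 16 counts in hindbrain whole tissue, 1 count in telencephalic sorted replicate 1 and 0 elsewhere. Against 3 counts over telencephalic whole tissue these were at least 7.32-fold and at least 5.07-fold higher. Both genes passed the filter on low counts only through hindbrain whole tissue, so their differences from that group are given as a description, with no test. Neither was among the 10 members called between whole tissues. In the same hindbrain whole libraries the sum over 10 neuronal markers was 146 and 137 CPM, against 93.4 and 81.7 CPM in telencephalic whole tissue and 41.7 to 55.2 CPM in the sorted libraries. Of the 10 markers 2 were called higher in hindbrain whole tissue, beside 3.34% of all genes tested. The part of such cells in the Wnt1 and Wnt2 counts was not tested.

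The other ligands were scarce. Wnt11 (0.85 to 1.26 CPM over the 8 libraries), Wnt8a (0.564 to 1.99 CPM) and Wnt3 (0 to 0.564 CPM) were tested and not called in any comparison. Wnt3a, Wnt7a, Wnt7b, Wnt9b, Wnt10a, Wnt10b and Wnt16 did not pass the filter on low counts and had between 3 and 33 counts in all libraries together. Of these, Wnt10a had its 3 counts and Wnt16 its 5 counts in hindbrain whole tissue, and Wnt7b had 5 and 10 counts in hindbrain and telencephalic whole tissue and 0 in sorted cells.

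The promoter sequences of Wnt4 and Wnt8b, which differed between regions in opposite directions, are shown from 250 bases before to 50 bases after the RefSeq start site (GRCm38.p6). The Wnt4 promoter lies at chr4:137277385-137277684 on the + strand and the Wnt8b promoter at chr19:44493222-44493521 on the + strand. Capitals mark TGACAG, letters bound by MEIS homeodomain factors, which were searched on both strands along with CTTTGAT, a TCF/LEF motif. The letters do not overlap each other.
Wnt4: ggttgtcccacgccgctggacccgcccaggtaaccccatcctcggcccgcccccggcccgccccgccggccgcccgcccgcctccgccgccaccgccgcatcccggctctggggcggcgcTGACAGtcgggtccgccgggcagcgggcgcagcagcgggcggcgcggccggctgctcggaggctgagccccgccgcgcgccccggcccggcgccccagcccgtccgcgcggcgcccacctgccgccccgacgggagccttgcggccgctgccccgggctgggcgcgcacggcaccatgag
Wnt8b: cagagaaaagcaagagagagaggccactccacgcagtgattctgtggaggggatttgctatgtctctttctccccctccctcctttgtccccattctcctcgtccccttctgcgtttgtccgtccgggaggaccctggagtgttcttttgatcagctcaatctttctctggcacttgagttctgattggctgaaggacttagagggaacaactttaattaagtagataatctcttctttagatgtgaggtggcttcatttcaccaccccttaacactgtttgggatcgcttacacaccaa
TGACAG began 130 bases before the start site of Wnt4, at position -130, and neither motif was found in the Wnt8b window. TGACAG or its reverse complement was present in 19.2% of 32851 mouse promoters of this length and in 7 of the 42 promoters found for 33 of the members. CTTTGAT or its reverse complement was present in 3.73% of all promoters and in 2 of the 42, those of Wnt11 and Wnt5b. The guanine and cytosine content was 84.3% for Wnt4 and 48.3% for Wnt8b.

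Among the receptors, Fzd7 was the most abundant Frizzled per kilobase in all 4 groups, at 26.7 CPM per kilobase in hindbrain sorted cells, 33.8 in telencephalic sorted cells, 27.9 in hindbrain whole tissue and 32.4 in telencephalic whole tissue. The summed Frizzled level was 86.2 ± 6.1 CPM per kilobase in hindbrain sorted cells, 96.2 ± 0.77 in telencephalic sorted cells, 83.0 ± 3.1 in hindbrain whole tissue and 83.4 ± 5.1 in telencephalic whole tissue. Of the 10 receptors 4 were called in sorted cells, beside 15.2% of all genes tested. Fzd4, Fzd5 and Fzd10 were higher and Fzd1 was lower in hindbrain. In whole tissue 3 were called, beside 5.79% of all genes. They were the same Fzd4, Fzd5 and Fzd10, all higher in hindbrain.

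Fzd4, also the receptor of the vascular signal norrin, had 89.9 and 82.9 CPM in hindbrain sorted cells, against 49.9 and 55.9 CPM in telencephalic sorted cells. Whole tissue had 76.6 and 67.7 CPM in hindbrain, against 53.2 and 43.3 CPM in the telencephalon. All hindbrain libraries lay above all telencephalic libraries, by 0.71 ± 0.13 in sorted cells (adjusted p = 0.00339) and 0.58 ± 0.14 in whole tissue (adjusted p = 0.0254). With telencephalic sorted replicate 1 left out Fzd4 was not called in sorted cells (adjusted p = 0.0606), and without any 1 of the 4 whole libraries it was not called in whole tissue (adjusted p = 0.0501 to 0.301). Fzd5, a receptor needed in eye development, had 52.4 and 45.2 CPM in hindbrain sorted cells, against 33.2 and 30.9 CPM in telencephalic sorted cells. In whole tissue Fzd5 had 47.9 and 45.7 CPM in hindbrain, against 26.7 and 22.3 CPM in the telencephalon. Here too the regions did not overlap, and the differences were 0.61 ± 0.14 in sorted cells (adjusted p = 0.0105) and 0.92 ± 0.14 in whole tissue (adjusted p = 0.00168). With telencephalic sorted replicate 1 or 2 left out Fzd5 was not called in sorted cells (adjusted p = 0.0595 and 0.0837).

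Fzd10, a scarce receptor, had 27 and 39 counts in hindbrain sorted cells, against 2 and 1 counts in telencephalic sorted cells. The ratio was 17.1, with a 95% counting interval of 5.60 to 85.1 (adjusted p = 0.00154). In whole tissue it had 2.94 and 3.35 CPM in hindbrain, against 0.55 and 0.839 CPM in the telencephalon, a difference of 2.21 ± 0.50 (adjusted p = 0.0202). That call was lost without any 1 of the 4 whole libraries (adjusted p = 0.101 to 0.284). Fzd1 was the only Frizzled called lower in hindbrain. It had 43.9 and 34.2 CPM in hindbrain sorted cells, against 63.1 and 57.2 CPM in telencephalic sorted cells (-0.62 ± 0.16, adjusted p = 0.0216). In whole tissue Fzd1 had 39.5 and 53.3 CPM in hindbrain and 54.2 and 54.5 CPM in the telencephalon, which was not called (-0.23 ± 0.16, adjusted p = 0.57). The sorted call of Fzd1 was lost with library totals as the scale (-0.41, adjusted p = 0.13), and without hindbrain sorted replicate 2 (-0.46, 0.0827), telencephalic sorted replicate 1 (-0.55, 0.162) or 2 (-0.69, 0.0574).

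Fzd3, a receptor of planar polarity and axon guidance, was not called between regions. It had 138 and 144 CPM in hindbrain sorted cells, 144 and 172 CPM in telencephalic sorted cells, 171 and 156 CPM in hindbrain whole tissue, and 182 and 174 CPM in telencephalic whole tissue. Fzd2 differed by -0.49 ± 0.16 in sorted cells, which was not called (adjusted p = 0.0585) but was called with brain as a block (-0.49, adjusted p = 0.0279). Fzd6, Fzd7, Fzd8 and Fzd9 were not called between regions, and neither were the co-receptors Lrp5 and Lrp6. Lrp6 had 305 to 423 CPM over the 8 libraries, and its regional difference was 0.07 ± 0.12 in sorted cells and -0.06 ± 0.12 in whole tissue.

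**Figure D3:**
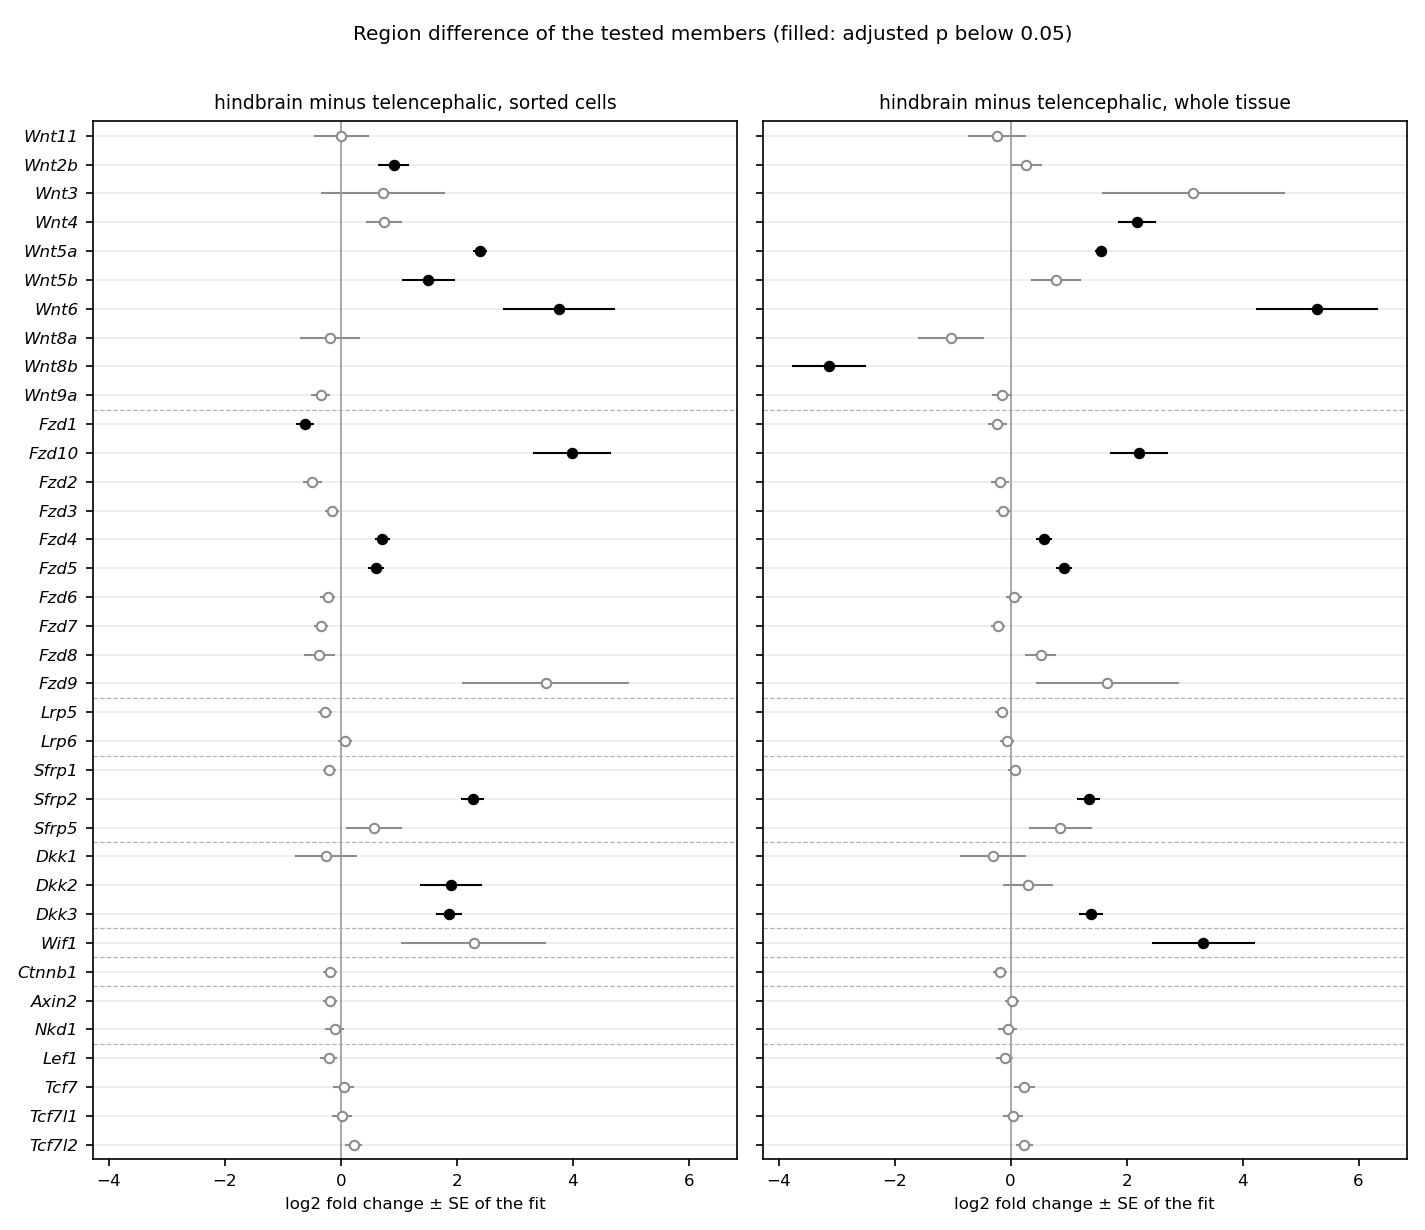
Log2 difference, hindbrain minus telencephalic, with its SE for the tested members with counts in every group compared, in sorted cells and in whole tissue; filled points have an adjusted p below 0.05. Wnt5a (2.40 in sorted cells and 1.56 in whole tissue), Sfrp2 and Dkk3 lie to the right of 0 in both, and Axin2, Lef1 and Ctnnb1 lie near 0.

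Of the secreted inhibitors, Sfrp2, Dkk3 and Dkk2 were higher in hindbrain sorted cells, and Sfrp2, Dkk3 and Wif1 in hindbrain whole tissue. Sfrp2, a secreted Frizzled-related protein that binds Wnts, had 21.9 and 21.0 CPM in hindbrain sorted cells, against 4.73 and 4.09 CPM in telencephalic sorted cells. Whole tissue had 18.1 and 23.6 CPM in hindbrain, against 7.34 and 9.12 CPM in the telencephalon. The regions did not overlap, and the difference was 2.27 ± 0.20 in sorted cells (adjusted p = 1.41e-05) and 1.35 ± 0.20 in whole tissue (adjusted p = 0.00128). Sfrp1, a relative with the same kind of Wnt-binding domain, was far more abundant, at 190 to 219 CPM per kilobase as group means, and made up 94.1% to 98.7% of the summed level of the 4 proteins. Its 8 libraries ranged from 768 to 961 CPM, with no call between regions (-0.20 ± 0.11 in sorted cells, adjusted p = 0.246, and 0.07 ± 0.11 in whole tissue, adjusted p = 0.845). Sfrp5 (0.795 to 2.69 CPM) was not called, and Sfrp4 was below the filter.

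The Sfrp2 promoter, shown because this inhibitor was called in both preparations, lies at chr3:83766071-83766370 on the + strand (RefSeq, GRCm38.p6, 250 bases before to 50 after the start site). Neither TGACAG nor CTTTGAT was found in it on either strand, so it holds no capitals, and its guanine and cytosine content was 66.0%.
Sfrp2: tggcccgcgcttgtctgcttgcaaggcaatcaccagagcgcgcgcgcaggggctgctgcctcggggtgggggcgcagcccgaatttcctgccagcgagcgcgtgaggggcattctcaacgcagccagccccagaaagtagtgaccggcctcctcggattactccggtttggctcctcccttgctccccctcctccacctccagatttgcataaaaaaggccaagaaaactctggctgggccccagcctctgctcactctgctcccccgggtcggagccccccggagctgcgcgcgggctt

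Dkk3, a divergent Dickkopf family member, had 23.2 and 16.5 CPM in hindbrain sorted cells, against 4.42 and 6.70 CPM in telencephalic sorted cells. Whole tissue had 40.0 and 37.9 CPM in hindbrain, against 14.5 and 15.3 CPM in the telencephalon. Within each preparation both hindbrain libraries were higher, by 1.86 ± 0.22 in sorted cells (adjusted p = 0.00011) and 1.39 ± 0.21 in whole tissue (adjusted p = 0.00149). Dkk2, which binds Lrp6, had 1.20 and 1.28 CPM in hindbrain sorted cells, against 0.34 and 0.31 CPM in telencephalic sorted cells (1.90 ± 0.53, adjusted p = 0.0296). In whole tissue Dkk2 had 3.31 and 3.73 CPM in hindbrain and 1.77 and 4.09 CPM in the telencephalon, and the groups overlapped (0.30 ± 0.43, adjusted p = 0.82). Its sorted call did not survive leaving out either telencephalic sorted library (1.98 and 1.85) or hindbrain whole replicate 2 (1.90). It was also lost with the sorted libraries alone (1.91, adjusted p = 0.104). Dkk1, the classical Lrp6 inhibitor, had 0.744 to 2.19 CPM and was not called, and Dkk4 was below the filter.

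Wif1, a secreted protein that binds Wnts, had 114 and 88 counts in hindbrain whole tissue, against 6 and 5 counts in telencephalic whole tissue. In sorted cells it had 0 and 20 counts in hindbrain, against 2 and 1 counts in the telencephalon, so that its hindbrain counts all came from replicate 2. The whole tissue difference was 3.32 ± 0.89 (adjusted p = 0.0483), and the call was lost without telencephalic sorted replicate 1 or 2 or any 1 of the 4 whole libraries (adjusted p = 0.0663 to 0.408). Wif1 was not called in sorted cells (adjusted p = 0.262), but was without hindbrain sorted replicate 1 (3.27, adjusted p = 0.00771). Notum, an enzyme that removes the lipid from Wnts, had 19 counts in all and was below the filter.

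Among the members of the beta-catenin branch, Axin2, Nkd1, Ctnnb1 and the 4 TCF/LEF factors were not called between regions. Axin2, a feedback inhibitor and widely used readout of beta-catenin signalling, had 53.3 and 61.3 CPM in hindbrain sorted cells and 69.2 and 61.4 CPM in telencephalic sorted cells. In whole tissue it had 72.9 and 72.1 CPM in hindbrain and 72.2 and 69.8 CPM in the telencephalon. The differences were -0.19 (95% interval -0.45 to 0.07, adjusted p = 0.343) in sorted cells and 0.03 (-0.23 to 0.29, adjusted p = 0.947) in whole tissue, and intervals of this width still allow a modest difference. Nkd1, which restrains Dishevelled, differed by -0.11 ± 0.16 and -0.05 ± 0.16. Ctnnb1 had 582 and 629 CPM in hindbrain sorted cells, 713 and 664 CPM in telencephalic sorted cells, 612 and 512 CPM in hindbrain whole tissue, and 669 and 603 CPM in telencephalic whole tissue (-0.19 ± 0.12, adjusted p = 0.346, and -0.18 ± 0.12, adjusted p = 0.536). Of the 4 TCF/LEF factors 0 were called by edgeR, 0 by DESeq2 and 0 at an unadjusted p below 0.05, in either preparation. Lef1, the most abundant of them per kilobase, was at 25.1, 29.1, 25.6 and 27.5 CPM per kilobase in hindbrain sorted, telencephalic sorted, hindbrain whole and telencephalic whole libraries.

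Markers of other cell types also differed between the sorted groups. Beside the counts that follow, 9.06% of all genes tested were called higher and 6.12% lower in hindbrain sorted cells. In hindbrain whole tissue these shares were 3.34% and 2.45%. Of 10 macrophage markers 10 were called higher in hindbrain sorted cells, of 10 mural markers 8, of 10 mesenchymal markers 8 with 1 lower, and of 10 endothelial markers 4 with 1 lower. Other lists were mixed or had no call. Of 10 neuronal markers 1 was called higher and 3 lower, and of 9 neural progenitor and glial markers tested 3 higher and 2 lower. Of 4 erythroid markers tested 0 were called. The summed mesenchymal level was 1810 and 1400 CPM in hindbrain sorted cells and 868 and 897 CPM in telencephalic sorted cells. The mural sum was 329 and 293 CPM in hindbrain sorted cells and 93.9 and 84.7 CPM in telencephalic sorted cells, and the macrophage sum 198 and 164 CPM against 34.5 and 56.3 CPM. In whole tissue the mesenchymal sum was 1550 and 1730 CPM in hindbrain and 1150 and 1340 CPM in the telencephalon, with 4 of 10 markers called higher. There the mural sum was 422 and 508 CPM against 432 and 461 CPM with 0 called, and the macrophage sum 183 and 184 CPM against 138 and 156 CPM with 1 called. None of the macrophage, mural, mesenchymal and endothelial markers was at 0 in all sorted libraries. Their part in the regional differences of Wnt5a, Wnt2b, Wnt5b, Wnt6, Sfrp2, Dkk2, Dkk3 and the Frizzleds was not tested.

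Between sorted cells and whole tissue, brain, dissociation, cell content and any difference in carrying the reporter cannot be told apart. The preparations came from different brains. In hindbrain 12 of 38 members were called, 1 higher and 11 lower in sorted cells, which is 31.6%, beside 22.1% of all genes (10.2% higher and 11.9% lower). Of these 12, Wnt1 and Wnt2 passed the filter only through hindbrain whole tissue. This share is therefore not read as a result about the members. In the telencephalon 10 were called, 1 higher and 9 lower, which is 26.3% and near the 22.4% of all genes (9.88% higher and 12.5% lower). Fewer members were called in hindbrain without hindbrain whole replicate 1 and in the telencephalon without telencephalic whole replicate 2. Shares of all genes called in those fits are not given here. Of 10 endothelial markers 10 were called lower in sorted cells of both regions. Mural markers were called lower for 5 of 10 in hindbrain and 9 of 10 in the telencephalon, and macrophage markers for 1 and 8 of 10. Neuronal markers were called lower for 9 of 10 in hindbrain and 5 of 10 in the telencephalon, neural progenitor and glial markers for 5 and 3 of the 9 tested, and erythroid markers for 3 and 2 of the 4 tested. Of 10 mesenchymal markers 1 was called higher and 1 lower in hindbrain, and 6 lower in the telencephalon. The part of these cells in the members' differences was not tested.

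Fzd6, a planar polarity receptor, was the only member called higher in sorted cells, and it was in both regions. It had 54.7 and 54.1 CPM in hindbrain sorted cells, against 19.9 and 20.3 CPM in hindbrain whole tissue. In the telencephalon it had 63.4 and 64.1 CPM in sorted cells, against 20.9 and 17.4 CPM in whole tissue. Every sorted library was higher than every whole library, by 1.43 ± 0.13 in hindbrain (adjusted p = 1.29e-05) and 1.73 ± 0.14 in the telencephalon (adjusted p = 2.73e-06). Per kilobase, Fzd6 stood at 12.4 and 14.5 in hindbrain and telencephalic sorted cells and at 4.59 and 4.36 in hindbrain and telencephalic whole tissue.

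**Figure D4:**
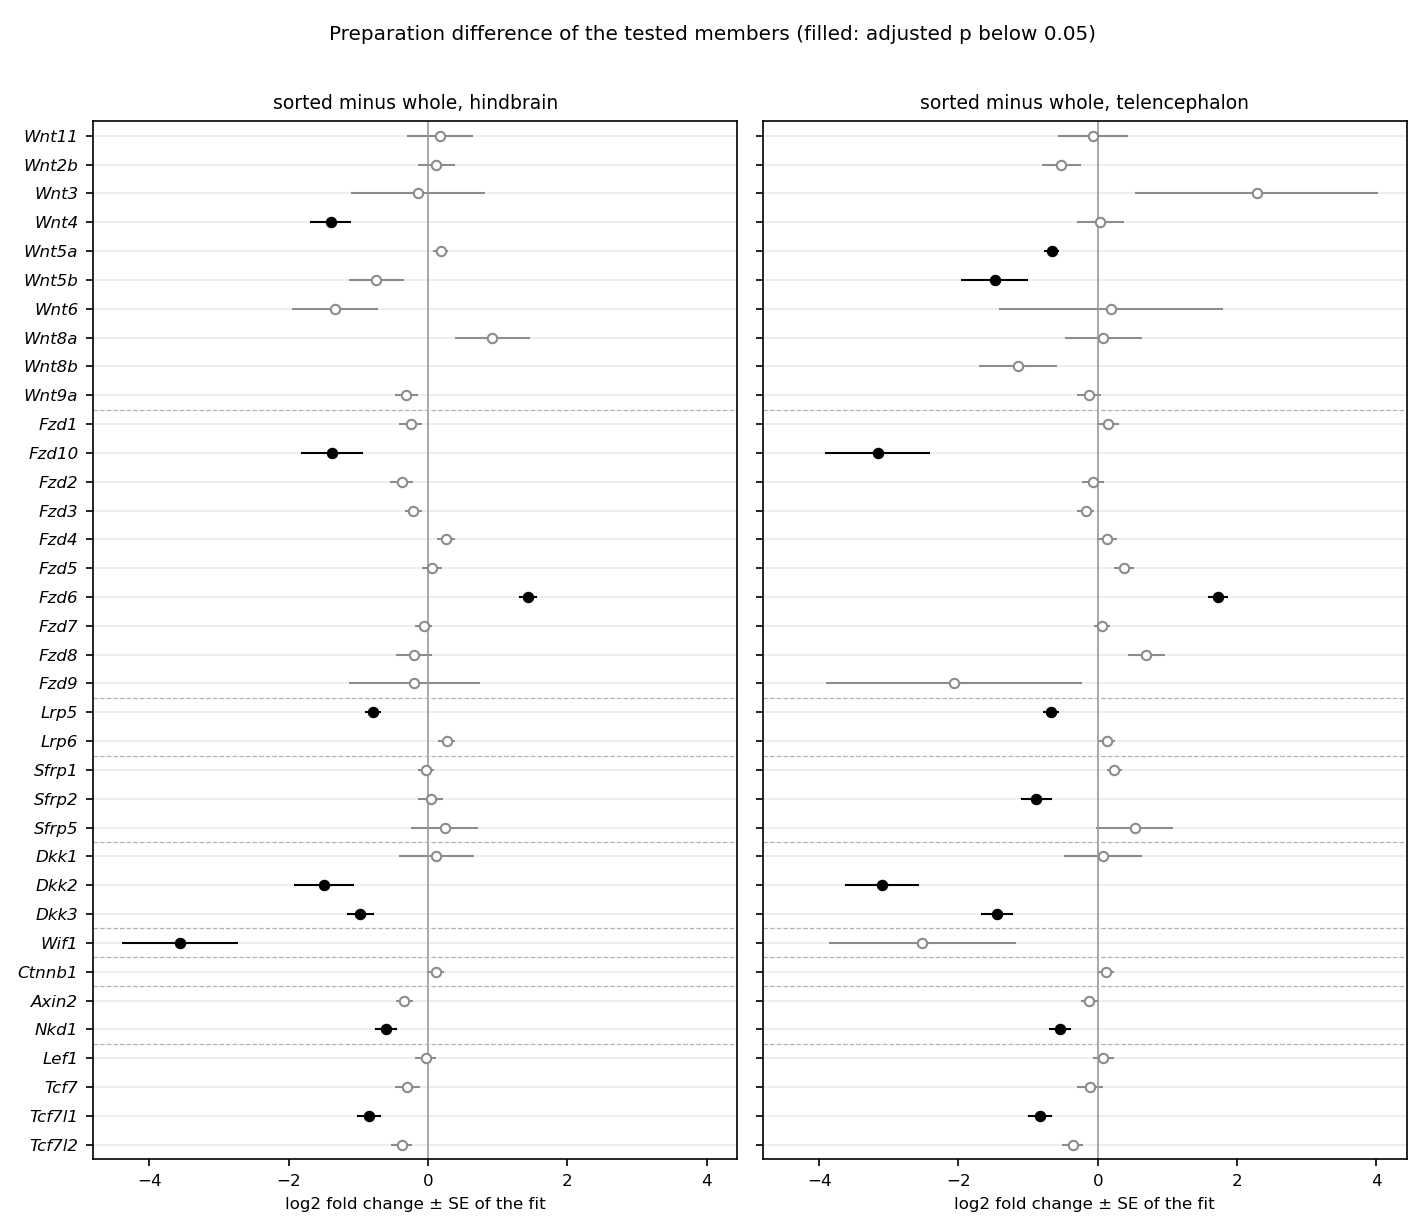
Log2 difference, sorted minus whole, with its SE for the tested members with counts in every group compared, in hindbrain and in the telencephalon. Filled points have an adjusted p below 0.05; Fzd6 (1.43 and 1.73) is the filled point right of 0 in both panels, and Lrp5, Dkk2, Dkk3, Fzd10, Nkd1 and Tcf7l1 are filled left of 0 in both.

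Lrp5, a co-receptor, had 45.9 and 49.3 CPM in hindbrain sorted cells, against 85.6 and 78.6 CPM in hindbrain whole tissue (-0.79 ± 0.12, adjusted p = 0.000531). In the telencephalon Lrp5 had 59.5 and 55.1 CPM in sorted cells, against 93.2 and 89.4 CPM in whole tissue (-0.67 ± 0.12, adjusted p = 0.00149). Sorted and whole libraries did not overlap, whereas Lrp6 was not called in either region (0.27 ± 0.12, adjusted p = 0.123, and 0.13 ± 0.12, adjusted p = 0.45). Tcf7l1, a TCF factor that acts mainly as a repressor, had 21.5 and 16.8 CPM in hindbrain sorted cells, against 31.2 and 38.1 CPM in hindbrain whole tissue (-0.85 ± 0.17, adjusted p = 0.00338). In the telencephalon Tcf7l1 had 19.2 and 18.7 CPM in sorted cells, against 31.4 and 36.4 CPM in whole tissue (-0.83 ± 0.17, adjusted p = 0.00431), and the call was lost without telencephalic whole replicate 2 (-0.73, 0.0543). Here too the sorted libraries were all below the whole ones.

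Nkd1 had 30.7 and 27.0 CPM in hindbrain sorted cells, against 50.0 and 37.7 CPM in hindbrain whole tissue (-0.60 ± 0.16, adjusted p = 0.0164). In the telencephalon Nkd1 had 31.4 and 30.7 CPM in sorted cells, against 48.8 and 41.5 CPM in whole tissue (-0.54 ± 0.16, adjusted p = 0.0292). All sorted libraries were lower, but the hindbrain call was lost without hindbrain sorted replicate 2 (-0.51) or hindbrain whole replicate 1 (-0.39). It was also lost with the hindbrain libraries alone (-0.61, adjusted p = 0.0541). The telencephalic call was lost without any 1 of the 4 telencephalic libraries (-0.65 to -0.42).

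Several members called between regions also differed between preparations. Wnt5a was lower in telencephalic sorted cells than in telencephalic whole tissue (-0.66 ± 0.11, adjusted p = 0.00152) and was not called in hindbrain (0.18 ± 0.11, adjusted p = 0.252). Sfrp2 was likewise lower in telencephalic sorted cells (-0.88 ± 0.22, adjusted p = 0.012; lost without telencephalic sorted replicate 2, -0.78, 0.0732, or telencephalic whole replicate 2, -0.73, 0.105) and not called in hindbrain (0.04 ± 0.18, adjusted p = 0.89). Dkk3 was lower in sorted cells of hindbrain (-0.97 ± 0.20, adjusted p = 0.00491) and of the telencephalon (-1.44 ± 0.23, adjusted p = 0.000811). Dkk2 was lower, at -1.50 ± 0.43 in hindbrain (adjusted p = 0.027; lost without hindbrain whole replicate 1, 0.0922, or 2, 0.146) and by -3.10 ± 0.53 in the telencephalon (adjusted p = 0.0014). Wnt4 was lower in hindbrain sorted cells (-1.40 ± 0.29, adjusted p = 0.00529) and not called in the telencephalon (0.04 ± 0.34, adjusted p = 0.952).

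Among the scarce transcripts, Wnt8b was at least 5.95-fold lower in hindbrain sorted cells than in hindbrain whole tissue (adjusted p = 0.0115; 0.0718 without hindbrain whole replicate 1). In the fit of the 4 hindbrain libraries alone Wnt8b did not pass the filter. Wnt1 was at least 15.5-fold and Wnt2 at least 10.7-fold lower there, with the counts given above. Both are among the 11 members called lower in hindbrain sorted cells, but they passed the filter only through hindbrain whole tissue, so nothing is read from these 2 calls. Wnt1 did not pass without hindbrain whole replicate 1, Wnt2 did not pass without replicate 2, and neither passed a filter of 1 CPM in 2 libraries. Wif1 was lower in hindbrain sorted cells (-3.56 ± 0.83, adjusted p = 0.00971; 0.0531 without hindbrain whole replicate 1). Fzd10 was lower, at -1.38 ± 0.44 in hindbrain (adjusted p = 0.0416). That call was lost without hindbrain sorted replicate 1 (-1.13), either hindbrain whole library (-1.47 and -1.29) or either telencephalic whole library (-1.38 each). It was also lost with the hindbrain libraries alone (-1.38, adjusted p = 0.0555) and by DESeq2 (adjusted p = 0.0863). In the telencephalon the Fzd10 counts were 3 in sorted cells and 17 in whole tissue, a ratio of 9.32-fold lower with a counting interval of 2.69 to 49.6 (adjusted p = 0.00978; 0.067 without telencephalic sorted replicate 1 and 0.0604 without telencephalic whole replicate 2). Wnt5b was lower in telencephalic sorted cells (-1.48 ± 0.48, adjusted p = 0.0438), a call that was lost by DESeq2 (0.0749) and without any 1 of the whole or telencephalic sorted libraries (0.0822 to 0.200).

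Other genes of the pathway were taken from 6 lists. For the counts that follow, the share of all genes tested that was called between regions was 15.2% in sorted cells and 5.79% in whole tissue. Of the 2 secretion genes 1 was called, Wls, which carries Wnts to the cell surface. Wls had 267 and 252 CPM in hindbrain sorted cells, against 102 and 111 CPM in telencephalic sorted cells. In whole tissue Wls had 158 and 174 CPM in hindbrain, against 78.5 and 84.4 CPM in the telencephalon. Both regional groups were thus apart in each preparation, by 1.29 ± 0.11 in sorted cells (adjusted p = 1.16e-05) and 1.03 ± 0.11 in whole tissue (adjusted p = 0.000155). Porcn, which attaches the lipid to Wnts, was not called (-0.24 ± 0.18 and -0.16 ± 0.18).

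Of 12 other secreted or membrane modulators tested, 2 were higher and 4 lower in hindbrain sorted cells, and 4 were higher and 2 lower in hindbrain whole tissue. Cpz, a carboxypeptidase with a Frizzled-like domain, averaged 4.90 ± 0.86 CPM in hindbrain sorted cells and 25.3 ± 4.1 CPM in telencephalic sorted cells (-2.37 ± 0.21, adjusted p = 1.35e-05). Its whole tissue means were 3.77 ± 0.72 CPM in hindbrain and 22.1 ± 1.8 CPM in the telencephalon (-2.55 ± 0.22, adjusted p = 2.71e-05). The glypican Gpc4, a proteoglycan that binds Wnts, was also lower in hindbrain, at -1.38 ± 0.14 in sorted cells (adjusted p = 3.66e-05) and -1.0 ± 0.14 in whole tissue (adjusted p = 0.000954). Its relative Gpc3 was lower in hindbrain sorted cells (-0.76 ± 0.11, adjusted p = 0.000413). Tpbg, a membrane glycoprotein that inhibits beta-catenin signalling in zebrafish, was higher by 0.74 ± 0.13 (adjusted p = 0.00266) and 1.03 ± 0.14 (adjusted p = 0.00066). Apcdd1, a membrane inhibitor, was higher in hindbrain whole tissue (1.63 ± 0.33, adjusted p = 0.00991), a call lost without hindbrain whole replicate 2 (0.114) or telencephalic whole replicate 1 (0.182) or 2 (0.0582). The remaining calls, named after their values were seen, were Bambi (higher) and Kremen1 (lower) in sorted cells and Cthrc1 and Draxin (higher) in whole tissue. The Bambi call was lost without telencephalic sorted replicate 1 (0.86). Kremen1 was lost with library totals as the scale (-0.45) and without hindbrain sorted replicate 1 (-0.55) or either telencephalic sorted library (-0.57 and -0.73). Cthrc1 was lost without any 1 whole library (1.65 to 1.75). Draxin was lost without hindbrain whole replicate 1 (1.28) or either telencephalic whole library (1.87 and 2.37). Without telencephalic whole replicate 1 or 2 fewer modulators were called in whole tissue, and the share of all genes in those fits is not given here.

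Of 14 co-receptor and planar polarity genes 5 were called in sorted cells, 2 higher and 3 lower in hindbrain. Ror2, a receptor of Wnt5a, averaged 6.55 ± 2.0 CPM in hindbrain sorted cells and 1.95 ± 0.84 CPM in telencephalic sorted cells (1.78 ± 0.37, adjusted p = 0.00573; 0.0806 without telencephalic sorted replicate 1). Prickle2, a planar polarity protein, was higher (1.07 ± 0.20, adjusted p = 0.00344). The atypical cadherins Celsr1 (-0.73 ± 0.12, adjusted p = 0.00158) and Celsr2 (-0.51 ± 0.11, adjusted p = 0.0068; 0.0698 when telencephalic sorted replicate 1 was left out and 0.101 when scaled by library totals) were lower, as was Vangl2, named after its value was seen. Without telencephalic sorted replicate 1 fewer of these genes were called, with no share of all genes given for that fit. The Vangl2 call was lost with library totals as the scale (-0.41) and with the sorted libraries alone (-0.62). It was also lost without hindbrain sorted replicate 2 (-0.47), either telencephalic sorted library (-0.59 and -0.64) or either telencephalic whole library (-0.62 each). In whole tissue 0 of the 14 were called by edgeR or DESeq2, and 3 had an unadjusted p below 0.05.

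Of 19 cytoplasmic transduction genes 1 was called, Dact1, a Dishevelled-binding protein, which averaged 42.9 ± 4.9 CPM in hindbrain sorted cells and 21.0 ± 1.3 CPM in telencephalic sorted cells (1.03 ± 0.15, adjusted p = 0.000572). In whole tissue 0 of the 19 were called by edgeR or DESeq2, and 1 had an unadjusted p below 0.05; Dact1 averaged 37.9 ± 0.40 CPM in hindbrain and 37.9 ± 6.2 CPM in the telencephalon there (0.01 ± 0.15). Of 12 nuclear cofactors Tle1, a Groucho co-repressor, was lower in hindbrain sorted cells (-0.61 ± 0.11, adjusted p = 0.00317) and whole tissue (-0.57 ± 0.12, adjusted p = 0.0114), and Tle2, of the same family, was higher in sorted cells (1.54 ± 0.40, adjusted p = 0.0207). The Tle1 call was lost without telencephalic sorted replicate 1 (0.0513) in sorted cells, and without hindbrain whole replicate 2 (0.122) or telencephalic whole replicate 1 (0.111) or 2 (0.104) in whole tissue. The Tle2 call was lost without hindbrain sorted replicate 1 (1.01) or telencephalic sorted replicate 1 (1.92) or 2 (1.27). It was also lost with the sorted libraries alone (1.54, adjusted p = 0.0536).

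Of 11 tested genes known as targets of beta-catenin signalling in various tissues, 4 were higher and 2 lower in hindbrain sorted cells, and 1 was higher and 2 lower in hindbrain whole tissue. Id2, an inhibitor of basic helix-loop-helix factors, was higher by 0.73 ± 0.14 in sorted cells (adjusted p = 0.00298; 0.0596 without telencephalic sorted replicate 1) and 0.85 ± 0.14 in whole tissue (adjusted p = 0.00271; 0.0556 without telencephalic whole replicate 2). Tnfrsf19, a receptor of the tumour necrosis factor family, was lower, at -0.79 ± 0.14 (adjusted p = 0.00199) and -0.58 ± 0.14 (adjusted p = 0.0275). Ephb3, an ephrin receptor, was lower, at -1.01 ± 0.17 (adjusted p = 0.00169) and -0.68 ± 0.17 (adjusted p = 0.0404). In whole tissue both calls were lost with library totals as the scale (0.0734 for Tnfrsf19 and 0.0906 for Ephb3). Without 1 library the whole tissue call of Tnfrsf19 was lost for telencephalic sorted replicate 2 (0.0507), hindbrain whole replicate 2 (0.258) and telencephalic whole replicate 1 (0.389), and that of Ephb3 for either telencephalic sorted or any whole library (0.0559 to 0.246). Myc, a growth regulator, had 3.60 and 9.83 CPM in hindbrain sorted cells, against 0.945 and 1.18 CPM in telencephalic sorted cells (2.67 ± 0.46, adjusted p = 0.00182). The other calls, named after their values were seen, were Ccnd1 and Cd44, both higher in hindbrain sorted cells. The Ccnd1 call was lost without any 1 sorted library (0.40 to 0.44) and with the sorted libraries alone (0.42). That of Cd44 was lost without hindbrain sorted replicate 2 (0.81) or telencephalic sorted replicate 1 (0.84), and with the sorted libraries alone (1.28). The directions of the called targets were thus mixed in both preparations. Fewer targets were called in sorted cells without telencephalic sorted replicate 1. The same held in whole tissue without telencephalic sorted replicate 2, hindbrain whole replicate 2 or either telencephalic whole library. Shares of all genes called in those fits are not given here.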

How the data were processed

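The values deposited by the authors are unnormalized, whole-number counts of reads for each gene symbol, from 8 RNA sequencing libraries of mouse choroid plexus, 2 in each of 4 groups. Per the labels' protocols, total RNA was pre-amplified as cDNA (NuGEN Ovation V2) and made into paired-end TruSeq v2 libraries, a chemistry that marks no strand. Genome build mm9 and the tools HTSeq, TopHat2 2.0.4 with Bowtie2 2.0.5, CASAVA 1.8.2 and DESeq 1 were used, per the submitters' processing notes. Neither the gene annotation nor the strand setting of the counting was given in the sources used here. A genome of that build was not used, so genes are named by symbol. Pre-amplified reads are not independent molecules, so counting intervals and floors (3 counts over a group) cover counting error only.

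The model was run in R 4.3.3 with edgeR 4.0.16: filterByExpr by group (minimum count 10, minimum total 15) kept 15698 of 23284 genes, libraries were scaled by TMM, and all 8 libraries entered 1 quasi-likelihood model of 4 group means. F tests gave the region difference in each preparation, the preparation difference in each region and the interaction, with Benjamini-Hochberg adjustment over all genes tested. Intervals are 95% intervals. The table has no row without a gene name. The procedure was run on simulated data with equal region changes planted in both preparations and no interaction. Its outcome is not given here and nothing is read from it. Exon lengths are unions of GENCODE M21 exons (GRCm38), matched for 48 of 48 members, and may differ from the annotation used for counting. Promoters are from RefSeq.

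Replicates are called biological in the series' text and differed by more than sampling noise. Brain was taken as the pair of same-numbered libraries of a preparation, since the text says that both regions came from the same brains. Deviations of paired libraries from their group means correlated at 0.30 in whole tissue and 0.15 in sorted cells. Brain as a block was an alternative. The other alternatives were other scalings and filters, DESeq2 1.42.0, the 4 libraries of a comparison alone, and leaving out each library. Where this left a group with 1 library, that library was assumed to vary like the other groups.

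The symbol rule for members uses no measured value, but this gene family and the lists were chosen with earlier results of these data known. Library values are given for members called between regions or in the interaction, for the members called between preparations only with the largest changes (at most 4 per direction), for the uncalled ligand and receptor with the highest CPM, and for Ctnnb1. Of the other pathway genes at most 4 called genes per list are named by adjusted p. All 155 list genes were in the table, 3 of them under older symbols.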

Additional observations from a re-analysis of the deposited data

Results flagged for a closer look

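The regional difference of Wnt5a, hindbrain minus telencephalic, was 2.40 ± 0.12 in sorted cells and 1.56 ± 0.11 in whole tissue, and the test of the difference between these values gave 0.84 ± 0.16 (log2, adjusted p = 0.0196 by edgeR's quasi-likelihood test). Both sorted and whole hindbrain libraries were higher than their telencephalic counterparts, in 2 of 2 same-numbered pairs of libraries of each preparation. The call of the difference between these values was lost without either telencephalic sorted library, hindbrain whole replicate 2 or either telencephalic whole library (0.78 to 0.91). For Dact1, a Dishevelled-binding protein, the same test gave 1.02 ± 0.21 (adjusted p = 0.0352), with a regional difference of 1.03 in sorted cells and 0.01 in whole tissue. The Dact1 call was lost without either telencephalic sorted library or any 1 whole library (0.85 to 1.18, adjusted p = 0.0631 to 0.255). With 2 libraries in a group no test for a single outlying sample was made.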

How the results depend on the processing

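Of 41 member calls with a fold change, 19 were kept under every alternative and 22 were lost under at least 1; 0 member results changed direction where a call was involved. Calls kept throughout were those of Wnt5a, Sfrp2, Dkk3, Wnt4 and Fzd5 in whole tissue, of Wnt5a, Sfrp2, Dkk3 and Fzd10 in sorted cells, of Fzd6, Lrp5, Dkk3, Tcf7l1 and Wnt4 between preparations in hindbrain, and of Fzd6, Lrp5, Dkk2, Dkk3 and Wnt5a between preparations in the telencephalon. The sorted call of Wnt8b, which has a bound in place of a fold, was kept under all 15 alternatives. Leaving out 1 library gave 5 to 12 called members between whole tissues, 5 to 13 between sorted groups, 6 to 13 between preparations in hindbrain, 5 to 14 in the telencephalon and 0 to 1 in the interaction, where 4 to 8 had an unadjusted p below 0.05. Without a filter on low counts the interaction had 2 called members, Wnt5a and Wnt4 (-1.44, adjusted p = 0.0354). With brain as a replicate block 11 members were called between whole tissues, 14 between sorted groups and 1 in the interaction; no block was possible between preparations. Library totals as the scale shifted the median of all genes by 0.08 in whole tissue, 0.20 in sorted cells, -0.20 between preparations in hindbrain, -0.32 in the telencephalon and 0.12 in the interaction. The share of called genes that were higher was then 70.7%, 83.5%, 20.1% and 10.5% in the first 4 of these comparisons, beside 57.6%, 59.7%, 46.3% and 44.1% with TMM. Member counts were then 10, 12, 17 and 14, with the added calls between preparations lower in sorted cells; between sorted groups Wnt4 was added (0.96, adjusted p = 0.0498) and Fzd1 lost. The 4 libraries of a comparison alone gave 8 members between sorted groups. The same alternatives for other pathway genes and markers were added after seeing the data. With 2 libraries per group, low counts such as those of Wnt1, Wnt2, Wnt6 and Wif1 limit precision; 1 count was 0.03638 to 0.1048 CPM per library.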

Other observations

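Values between preparations are given here for a few other genes of the pathway. Frzb, a secreted Wnt-binding protein, averaged 0.366 ± 0.21 CPM in hindbrain sorted cells and 1.69 ± 0.52 CPM in hindbrain whole tissue (-2.19 ± 0.57, adjusted p = 0.0161), and 0.219 ± 0.042 CPM in telencephalic sorted cells and 2.17 ± 0.043 CPM in telencephalic whole tissue (-3.31 ± 0.64, adjusted p = 0.0032; edgeR's quasi-likelihood test, n = 2 per group). Ccnd1, a cell cycle cyclin, averaged 59.6 ± 1.2 CPM in hindbrain sorted cells and 169 ± 2.8 CPM in hindbrain whole tissue (-1.51 ± 0.12, adjusted p = 4.1e-06), and 44.4 ± 0.97 CPM in telencephalic sorted cells and 131 ± 17 CPM in telencephalic whole tissue (-1.57 ± 0.12, adjusted p = 2.55e-06). Sostdc1, an inhibitor of BMP and Wnt signals, was at 1220 to 1800 CPM over the 8 libraries and was not called in any comparison. These genes were chosen after their values were seen.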
